A study of Mus musculus with 36 samples.

Results

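The lysosome and TFEB-related genes described here are 42 mouse genes, named by symbol, of 52636 genes listed in every library, and all 42 symbols matched an Ensembl identifier. They cover the TFE transcription factors, the proteins that control them, lysosomal hydrolases, lipid-handling proteins and lysosomal membrane proteins. Of the 42 genes, 40 were listed for their known place in this system, and 2, Rragd and Mcoln3, were picked for their pattern in these libraries, so these 2 are given as values with no test. The 40 were also listed with earlier results of these data known, so shares called among them are a description of this list. The filter on low counts passed 38 of the 40 listed genes, which were tested, and Mitf and Gpnmb did not pass it.

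The libraries were made from intestinal organoids, epithelial structures grown in Matrigel from crypts of the C57BL/6 mouse jejunum, and the age of the mice is not given in the labels. There were 6 groups of 6 libraries, and every culture received either control IgG or an antibody against the receptor Ptk7. Complete media + IgG was a commercial organoid growth medium, QCM + IgG contained medium conditioned by serum-starved, quiescent mouse embryonic fibroblasts, and SCM + IgG contained medium conditioned by fibroblasts made senescent with X-rays or doxorubicin, which of these the labels do not say. Wnt5a + IgG contained Wnt5a, a noncanonical Wnt ligand, and SCM + anti-Ptk7 and Wnt5a + anti-Ptk7 held the same media with the antibody in place of IgG. The antibody was not paired with complete media in the libraries held here, so the antibody was compared with IgG within SCM and within Wnt5a only. The crypts came from 6 mice, but no label ties a library to a mouse, so the p-values measure the spread between these libraries. If mice were shared between groups, the main fit, which has no covariate, ignores that pairing.

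Lysosomes are acidic organelles in which hydrolases break down proteins, glycans and lipids that arrive by endocytosis and autophagy, and membrane proteins such as Lamp1 and Lamp2 line and protect them. TFEB, TFE3 and MITF are related transcription factors that bind E-box sequences in front of many lysosomal genes. When amino acids are plentiful, the Rag GTPases together with folliculin allow mTORC1 to phosphorylate these factors at the lysosome, which keeps them in the cytoplasm, and on starvation they enter the nucleus, a step that need not change their own mRNA.

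Libraries held 9581589 to 21029769 counts each (median 13490071), and levels are given as CPM, the counts scaled to a common library size after TMM normalisation. Epithelial markers were abundant in every library, with a sum over 8 markers of 6442 to 8079 CPM in complete media + IgG, 8949 to 12800 CPM in SCM + IgG and 9938 to 17560 CPM in Wnt5a + IgG. The 13 macrophage markers, listed because macrophages are rich in lysosomes, summed to between 26.98 and 56.8 CPM over the 36 libraries. In bulk RNA, fewer cells of a type and less RNA per cell cannot be told apart. The libraries numbered 1 held the highest level in 32 of the 42 combinations of group and gene for the 7 genes called with Wnt5a, so the tests were also run with the library numbered 1 left out of every group, an alternative chosen after the data were seen.

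Levels between genes were compared per kilobase of coding sequence, since reads within coding sequences were counted. In complete media + IgG, Ctsb, a cysteine protease, was highest at 753 ± 40.8 CPM per kilobase (SD, n = 6), followed by Lamp1 at 631 ± 26.8, the sterol carrier Npc2 at 472 ± 21.8, the carboxypeptidase Ctsz at 366 ± 26.4 and the aspartic protease Ctsd at 317 ± 34.8. The intervals of 1 SD around Ctsz and Ctsd met, and those of the higher 3 did not. With the length of all exons in place of the coding length, Lamp1 ranked 1, Ctsz 2, Ctsd 3, Ctsb 5 and Npc2 13, so the order at the top depends on the length used. Of the 1230 coding bases of Ctsd, 65.7% also lie in an exon of another gene model on the same strand, Gm49369, so reads of these 2 cannot be told apart with certainty. The TFE factors were much lower, with Tfe3 at 25.7 ± 2.53 and Tfeb at 18.5 ± 1.96 CPM per kilobase, and these 2 did not overlap within 1 SD. Mitf stood at 0.142 ± 0.177 CPM per kilobase and Gpnmb, a membrane glycoprotein of macrophages and melanocytes, was at 0 in all 6 libraries of complete media + IgG. Mitf did not exceed 0.922 CPM in any library, and Gpnmb did not exceed 0.269 CPM.

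The promoters are shown because the TFE factors read E-boxes in them. RefSeq promoters on build GRCm38.p6, from 250 bases before to 50 bases after each start, were held for 37 of the 42 genes, and Ctsb, Asah1, Galns, Ctsh and Npc1 had no entry. The core CACGTG, searched on both strands, was found for 12 of 35 listed genes, or 34.3%, against 8.09% of the 27025 promoters in the table. The longer TCACGTG, searched on both strands and contained in some of the same sites, was found for 11 of 35, or 31.4%, against 4.29%, and the longer CLEAR palindrome that contains it for 0 of 35, against 0.37%. The listed genes were chosen as lysosomal and TFEB-related, so these shares are not independent of the list. The promoters compared also include genes not tested here. Neither Rragd nor Mcoln3 held CACGTG in this window. Of the 7 genes called with Wnt5a, Ctsl held CACGTG, Manba, Lipa and Scarb2 held none of the 3 motifs, and Ctsh, Asah1 and Npc1 had no entry. Windows of 30 bases are given 5′ to 3′ on the strand of the gene, with the motif and any flanking T or A of the longer form in capitals. Those of Lamp1, Glb1, Gaa, Rragc and Fnip1 lie in no GENCODE gene and hold the longer form, and that of Ctsl lies in an annotated Ctsl exon upstream of the RefSeq start and holds the core only.
Lamp1 (chr8:13159087-13159116, plus strand): gagggcaagataTCACGTGgtccagcgccc
Glb1 (chr9:114401017-114401046, plus strand): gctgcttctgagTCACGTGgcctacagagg
Gaa (chr11:119267810-119267839, plus strand): ttttctgtgcgaTCACGTGtttgactctga
Rragc (chr4:123917309-123917338, plus strand): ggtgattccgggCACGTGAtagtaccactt
Fnip1 (chr11:54438092-54438121, plus strand): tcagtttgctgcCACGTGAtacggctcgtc
Ctsl (chr13:64370739-64370768, minus strand): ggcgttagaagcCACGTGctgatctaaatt

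**Figure D1:**
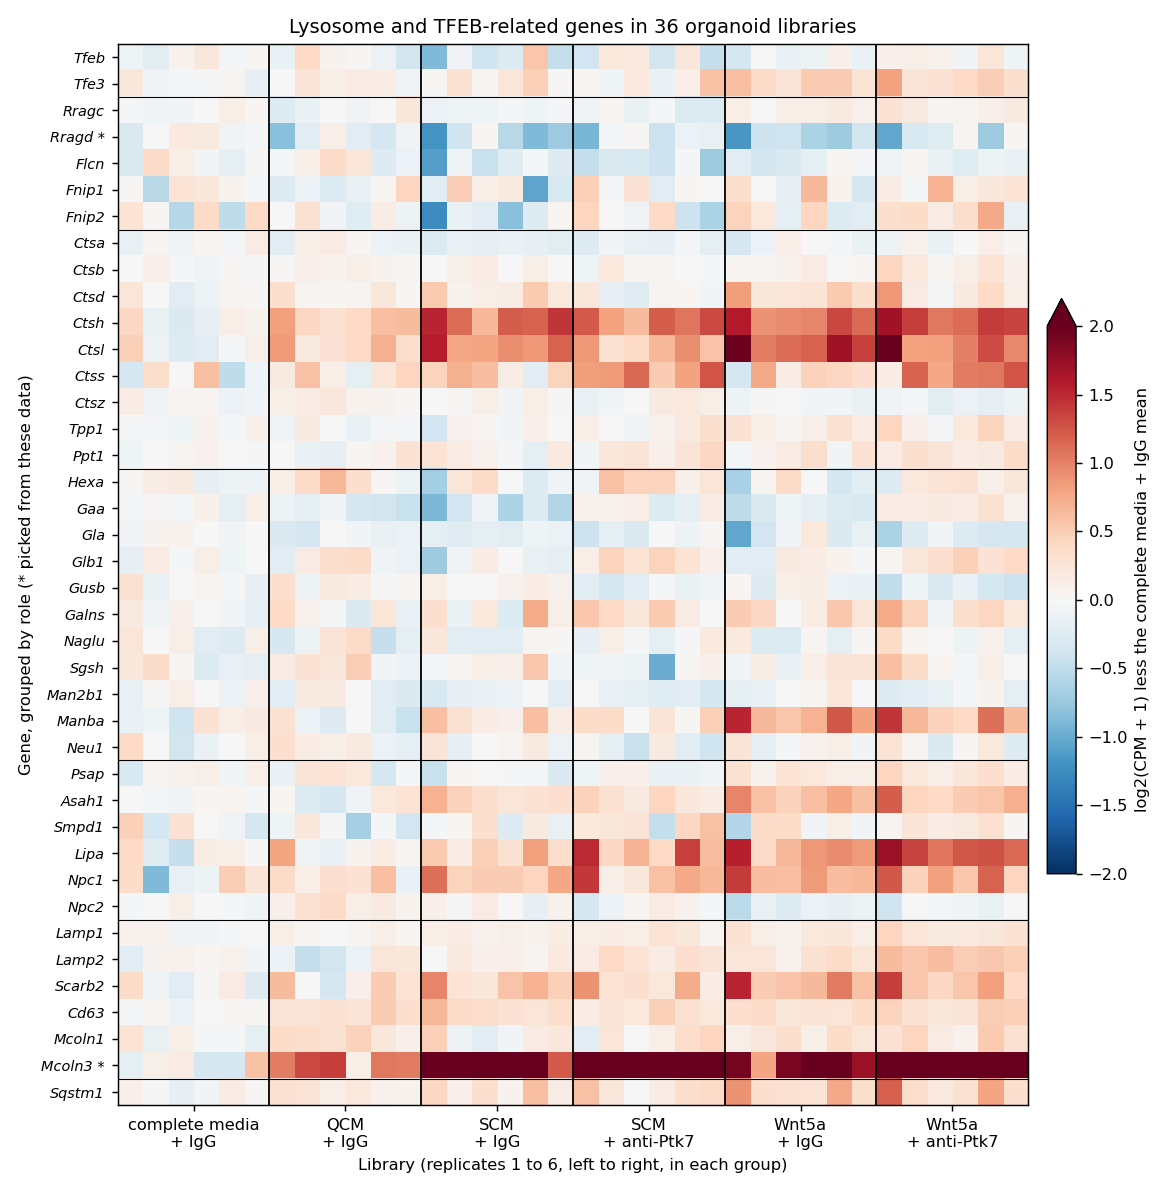
Each row is one of 40 genes (Mitf and Gpnmb, near 0, are left out), each column one of 36 libraries, and the colour gives log2(CPM + 1) less the mean of complete media + IgG, with rows grouped by role and the 2 picked genes starred. Ctsh and Ctsl are red in every SCM and Wnt5a library, Manba, Asah1, Lipa, Npc1 and Scarb2 are red in the Wnt5a libraries, and most other rows stay pale.

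The question put to QCM, SCM and Wnt5a was how each changed the organoids relative to complete media. Calls required a fold change over 1.5 together with an adjusted p under 0.05 in edgeR's quasi-likelihood test, with adjustment over all 15497 genes tested. With QCM none of the 38 genes was called by edgeR, DESeq2 or voom with limma, beside 0.374% of all genes called in either direction by edgeR, and 6 of the 38 had an unadjusted p under 0.05, beside 12% of all genes. With SCM 2 genes rose, the proteases Ctsh and Ctsl, which is 5.26% of the 38 beside 4.96% of all genes called higher, a share near the background. With Wnt5a 7 genes rose, Ctsh, Ctsl, Manba, Asah1, Lipa, Npc1 and Scarb2, which is 18.4% of the 38 beside 8.29% of all genes called higher. None of the 38 was called lower with SCM or Wnt5a, beside 1.12% and 1.88% of all genes. Without the fold change cutoff, 1 gene, Cd63, was higher with QCM, beside 0.542% of all genes, 4 were higher and 1 lower with SCM, beside 7.43% and 4.45%, and 13 were higher and 1 lower with Wnt5a, beside 12.5% and 9.4%. The 3 comparisons share the complete media + IgG libraries, so their values are given side by side and not as independent results.

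Across the 38 genes the median change on the log2 scale was 0.07 with QCM, 0.07 with SCM and 0.13 with Wnt5a, beside medians of 0.02, 0.01 and 0.01 over all genes tested. The 95% interval of the fold change lay inside 1.5-fold in either direction for 33 of the 38 genes with QCM, 27 with SCM and 26 with Wnt5a, beside 57%, 51.2% and 46.6% of all genes. The 38 genes were higher in level than all genes tested, with a mean log2 CPM of 6.39 against 3.90 in complete media + IgG. Higher counts give narrower intervals, so these shares, here and in the later comparisons, are not matched for level. The mean log2 CPM of the 38 genes was 6.39 ± 0.05 in complete media + IgG, 6.47 ± 0.039 in QCM + IgG, 6.5 ± 0.043 in SCM + IgG, 6.55 ± 0.041 in SCM + anti-Ptk7, 6.63 ± 0.061 in Wnt5a + IgG and 6.71 ± 0.098 in Wnt5a + anti-Ptk7 (SD, n = 6). The mean over all genes tested ran from 3.90 ± 0.036 in complete media + IgG to 4.00 ± 0.028 in Wnt5a + IgG and 4.04 ± 0.018 in Wnt5a + anti-Ptk7. All 6 Wnt5a + IgG libraries, the lowest at 6.56, lay above all 6 complete media + IgG libraries, the highest at 6.47. The mean over all genes tested was separated in the same way, with a lowest Wnt5a + IgG library of 3.973 and a highest complete media + IgG library of 3.951.

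**Figure D2:**
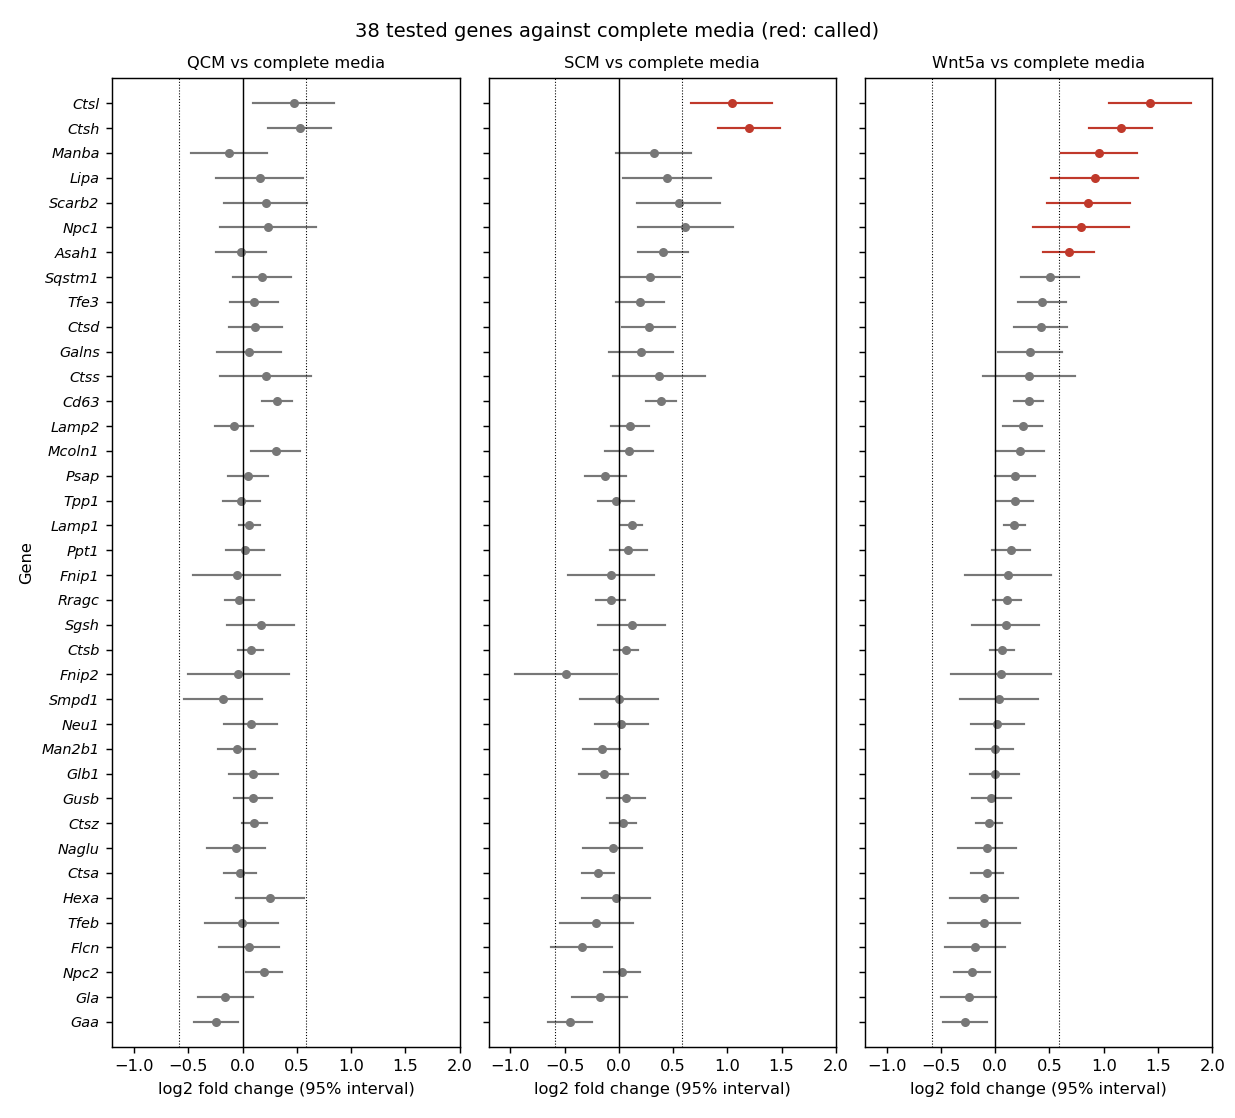
Each row is one of the 38 tested genes, ordered by the Wnt5a comparison, and the 3 panels give the log2 fold change of QCM, SCM and Wnt5a against complete media (points) with 95% intervals (lines), dotted lines at a fold change of 1.5 and called genes in red. Red points are absent with QCM, number 2 with SCM and 7 with Wnt5a, and among the uncalled points Npc1 with SCM, at 0.61, lies past the dotted line and Scarb2 with SCM, at 0.55, just inside it.

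Among the 8 proteases and the thioesterase Ppt1, Ctsh and Ctsl were called with both SCM and Wnt5a. They are 22.2% of that group, beside 4.96% of all genes called higher with SCM and 8.29% with Wnt5a. Ctsh, an aminopeptidase of the papain family, ran from 83.1 to 136 CPM in complete media + IgG (median 99.55), from 127 to 182 in QCM + IgG (median 146), from 161 to 296 in SCM + IgG (median 235) and from 191 to 310.5 in Wnt5a + IgG (median 214). Every SCM and Wnt5a library lay above every complete media library, while the QCM libraries overlapped them. With SCM the log2 fold change was 1.2 ± 0.143 (SE), adjusted p = 3.98e-07 by edgeR, and 1.16 ± 0.143 with Wnt5a, adjusted p = 4.17e-07. With QCM it was 0.53 ± 0.142, adjusted p = 0.0835, which missed the threshold. With the libraries numbered 1 left out, the QCM values were 0.56, adjusted p = 0.0169, for Ctsh and 0.50, adjusted p = 0.0383, for Ctsl, both under the fold change cutoff.

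Ctsl, a cysteine protease that degrades endocytosed protein, ran from 46.9 to 77.95 CPM in complete media + IgG (median 53.7), from 63.3 to 102 in QCM + IgG (median 73.2), from 96.4 to 168 in SCM + IgG (median 105.5) and from 115 to 220.1 in Wnt5a + IgG (median 138). The SCM and Wnt5a libraries again did not overlap complete media, and the highest library in each of these 4 groups was the one numbered 1. The log2 fold change was 1.04 ± 0.185 with SCM, adjusted p = 0.000208 by edgeR, and 1.43 ± 0.186 with Wnt5a, adjusted p = 9.91e-07, and with QCM it was 0.47 ± 0.184, adjusted p = 0.264. With the libraries numbered 1 left out it was 1.02 with SCM and 1.40 with Wnt5a, and both calls were kept. The other 6 proteases and Ppt1 were called in none of the 3 comparisons. Of these, Ctsd, chosen here after its values were seen, had a log2 fold change of 0.42 ± 0.120 with Wnt5a, adjusted p = 0.0103, which passed the test but not the fold change cutoff.

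Of the 11 glycan and glycosaminoglycan hydrolases, 1 was called with Wnt5a, or 9.09%, near the 8.29% of all genes called higher. Manba, the β-mannosidase that removes mannose from glycoprotein fragments, ran from 27.1 to 44.6 CPM in complete media + IgG (median 37.0), from 26.4 to 44.9 in QCM + IgG (median 32.2), from 39.1 to 55.6 in SCM + IgG (median 42.6) and from 53.6 to 105.5 in Wnt5a + IgG (median 61.7). Only the Wnt5a libraries stood clear of complete media, with a log2 fold change of 0.95 ± 0.171, adjusted p = 0.000116 by edgeR, against 0.32 ± 0.171 with SCM, adjusted p = 0.2475. These 11 genes had a median change of -0.03 with SCM and -0.01 with Wnt5a on the log2 scale. The tested gene with the lowest value in the Wnt5a comparison was Gaa, the α-glucosidase of lysosomal glycogen, named here after its values were seen. Gaa ran from 118 to 145.5 CPM in complete media + IgG (median 133), from 71.4 to 127 in SCM + IgG (median 95.8) and from 93.7 to 125 in Wnt5a + IgG (median 109.7). The groups overlapped, and its log2 fold changes of -0.45 ± 0.0999 with SCM, adjusted p = 0.00234, and -0.28 ± 0.0996 with Wnt5a, adjusted p = 0.0417, passed the test without reaching 1.5-fold. With the libraries numbered 1 left out, Gaa had an adjusted p of 0.00796 with SCM and 0.0774 with Wnt5a, so it no longer passed with Wnt5a.

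Of the 6 genes of sphingolipid and sterol handling, 3 rose with Wnt5a, or 50% beside 8.29% of all genes called higher. With SCM edgeR called 0 of the 6, and DESeq2 called 1 of them, Npc1. The filter of at least 10 counts in every library also called Npc1. Asah1, the acid ceramidase that splits ceramide into sphingosine and fatty acid, ran from 145 to 156 CPM in complete media + IgG (median 149.7), from 119 to 181 in QCM + IgG (median 149), from 177 to 244 in SCM + IgG (median 190.6) and from 207 to 296 in Wnt5a + IgG (median 227). The 6 complete media libraries lay close together and below every SCM and Wnt5a library. Its log2 fold change was 0.68 ± 0.114 with Wnt5a, adjusted p = 5.23e-05 by edgeR, and 0.41 ± 0.114 with SCM, adjusted p = 0.0156, under the fold change cutoff.

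Lipa, the acid lipase that frees cholesterol from its esters, ran from 16.8 to 31.1 CPM in complete media + IgG (median 24.5), from 20.98 to 41.2 in QCM + IgG (median 24.4), from 25.9 to 42.15 in SCM + IgG (median 31.4) and from 30.55 to 70.1 in Wnt5a + IgG (median 42.9). The lowest Wnt5a library fell just under the highest complete media library. With Wnt5a it rose by a log2 fold change of 0.92 ± 0.199, adjusted p = 0.000941 by edgeR. Npc1, the membrane transporter that exports cholesterol from the lysosome, ran from 7.24 to 20.5 CPM in complete media + IgG (median 15.2), from 12.9 to 22.01 in QCM + IgG (median 17.95), from 19.4 to 31.6 in SCM + IgG (median 20.6) and from 22.02 to 39.2 in Wnt5a + IgG (median 22.7). The Wnt5a libraries lay above every complete media library, 5 of them by little and the one numbered 1 by more. Its log2 fold change was 0.79 ± 0.217 with Wnt5a, adjusted p = 0.00756 by edgeR, and 0.61 ± 0.217 with SCM, adjusted p = 0.0593. With the libraries numbered 1 left out, the values with Wnt5a were 0.83 for Lipa and 0.70 for Npc1, and both were still called.

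Of the 5 tested membrane proteins, Scarb2 was called with Wnt5a, which is 20% beside 8.29% of all genes called higher. Scarb2, the receptor that carries β-glucocerebrosidase to the lysosome, ran from 54.6 to 85.5 CPM in complete media + IgG (median 64.5), from 51.5 to 102 in QCM + IgG (median 74.85), from 77.0 to 130.8 in SCM + IgG (median 94.95) and from 94.15 to 192 in Wnt5a + IgG (median 101). The library numbered 1 was the highest in all 6 groups. Its log2 fold change was 0.86 ± 0.189 with Wnt5a, adjusted p = 0.00111 by edgeR, and 0.55 ± 0.188 with SCM, adjusted p = 0.0507, and with the libraries numbered 1 left out it was 0.76 with Wnt5a. Lamp1 and Lamp2, the main glycoproteins of the lysosomal membrane, differed less. Lamp1 ran from 737 to 814.5 CPM in complete media + IgG (median 759) and from 804 to 940.4 in Wnt5a + IgG (median 866.5), with overlap, and had a log2 fold change of 0.18 ± 0.0484, adjusted p = 0.00794. Lamp2 ran from 223 to 276.3 CPM in complete media + IgG (median 268) and from 276.4 to 340.3 in Wnt5a + IgG (median 307), without overlap by a narrow margin, and had a log2 fold change of 0.25 ± 0.0864, adjusted p = 0.0331, which became 0.125 with the libraries numbered 1 left out. Mcoln1, the calcium channel TRPML1 of the lysosomal membrane, had a median of 45.5 CPM in complete media + IgG and 54.3 in Wnt5a + IgG, with overlap and an adjusted p of 0.138 by edgeR, which became 0.037 with the libraries numbered 1 left out.

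**Figure D3:**
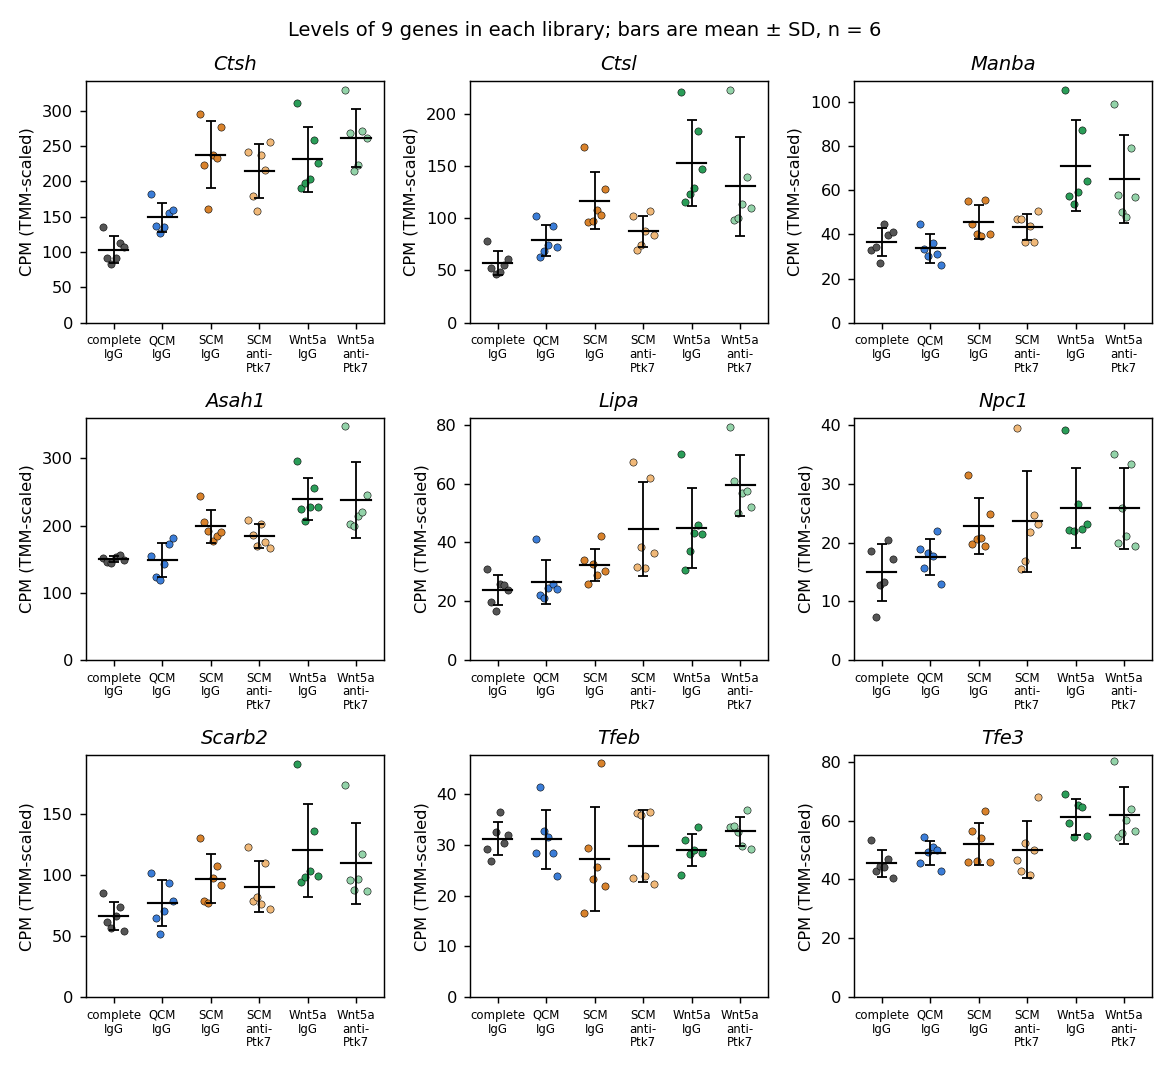
CPM of 9 genes in each library, with one point per library and the mean ± SD of each group of 6 in black, on linear axes that start at 0. The 7 genes called with Wnt5a are followed by Tfeb, in which all groups overlap, and Tfe3, in which the 6 Wnt5a + IgG libraries, 54.5 to 68.9 CPM, lie above the complete media libraries, 40.3 to 53.4 CPM.

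Of the mRNAs of the TFE factors, neither Tfeb nor Tfe3 was called, and Mitf was not tested. Tfeb ran from 26.8 to 36.45 CPM in complete media + IgG (median 31.1), from 16.5 to 46.1 in SCM + IgG (median 24.4) and from 24 to 33.5 in Wnt5a + IgG (median 28.7). The groups overlapped, and the 95% interval of the log2 fold change ran from -0.54 to 0.13 with SCM and from -0.44 to 0.23 with Wnt5a. Tfe3 had a log2 fold change of 0.43 ± 0.109 with Wnt5a, adjusted p = 0.00397 by edgeR, under the fold change cutoff, with 6 of 6 Wnt5a libraries above complete media, and of 0.19 ± 0.109 with SCM, adjusted p = 0.282. Of the regulators, Rragc, a Rag GTPase that presents the TFE factors to mTORC1, had medians of 140.5 CPM in complete media + IgG, 134 in SCM + IgG and 154 in Wnt5a + IgG. Its 95% interval ran from -0.21 to 0.06 with SCM and from -0.025 to 0.24 with Wnt5a, narrow around 0. Flcn, the folliculin gene whose product activates RagC and RagD, had medians of 48.9, 41.5 and 43.2 CPM in the same groups, with a log2 fold change of -0.34 ± 0.137 with SCM, adjusted p = 0.099 by edgeR. Among the other genes, the autophagy receptor Sqstm1, named here after its values were seen, had a log2 fold change of 0.51 ± 0.133 with Wnt5a, adjusted p = 0.00533, also under the cutoff.

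The remaining 21 tested genes, named after their values were seen, had log2 fold changes from -0.24 to 0.32 with Wnt5a. Among the proteases and Ppt1, these were Ctsa at -0.08, Ctsz at -0.06, Ctsb at 0.06, Ppt1 at 0.14, Tpp1 at 0.18 and Ctss at 0.31. Among the hydrolases of glycans, Gla, the α-galactosidase, had a log2 fold change of -0.24 and Galns, a sulfatase of keratan sulfate, of 0.32, and Hexa, Naglu, Gusb, Glb1, Man2b1, Neu1 and Sgsh lay between these. The sphingolipid activator precursor Psap stood at 0.18, the sphingomyelinase Smpd1 at 0.03 and Npc2 at -0.21, and the folliculin partners Fnip1 and Fnip2 at 0.12 and 0.05. None of these 20 genes passed an adjusted p of 0.05 by edgeR with QCM, SCM or Wnt5a, with or without the fold change cutoff. The exception was Cd63, a tetraspanin of late endosomes and lysosomes, which ran from 175.7 to 198.2 CPM in complete media + IgG (median 192.4), from 226.1 to 269.4 in QCM + IgG (median 231.2), from 225.4 to 300 in SCM + IgG (median 242.5) and from 223.3 to 248.8 in Wnt5a + IgG (median 233.8). Every QCM, SCM and Wnt5a library lay above every complete media library. The log2 fold changes were 0.32, adjusted p = 0.0119, with QCM, 0.39, adjusted p = 0.000147, with SCM and 0.31, adjusted p = 0.00103 by edgeR, with Wnt5a, all under 1.5-fold. SCM and QCM overlapped, with an adjusted p of 0.646 for their difference.

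Over the 11 tested genes with TCACGTG, the median log2 fold change with Wnt5a was 0.09, with values from -0.28 to 0.42, and over the 22 tested genes with a promoter but without it 0.16, with values from -0.21 to 1.43. With SCM the medians were -0.07 and 0.05. These medians are a description with no test, and a match in these windows says nothing of binding.

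Markers moved in the same comparisons. Relative to complete media + IgG, the summed epithelial markers did not overlap with SCM or Wnt5a, with medians of 6874, 10410 and 10630 CPM, and the sum in the Wnt5a + IgG library with the highest value was 17560 CPM. Its genes went both ways. Of the 8, 3 were called higher with SCM (37.5%) and 4 with Wnt5a (50%), beside 4.96% and 8.29% of all genes, and 1 was lower in each without the fold change cutoff. Named after their values were seen, the keratin gene Krt18 had means of 1490, 2980 and 3470 CPM in complete media + IgG, SCM + IgG and Wnt5a + IgG, and the transcription factor gene Cdx1 had means of 594, 481 and 418 CPM. The 6 tuft cell markers summed to 8.18 to 12.1 CPM in complete media + IgG, 10.2 to 15.9 in SCM + IgG and 22.5 to 36.7 in Wnt5a + IgG, with none at 0. Of the 5 tested, 3 were called higher with Wnt5a (60%) and 0 with SCM. The 10 fibroblast markers summed to 4.00 to 8.14 CPM in complete media + IgG, 2.19 to 10.04 in SCM + IgG and 15.4 to 41.2 in Wnt5a + IgG, with 5 at 0 in complete media + IgG and in Wnt5a + IgG and with Fn1, named after its values were seen, at a mean of 18.1 CPM in Wnt5a + IgG. The 13 macrophage markers summed to 28.4 to 43.0, 37.1 to 49.4 and 36.1 to 56.8 CPM in complete media + IgG, SCM + IgG and Wnt5a + IgG, with 7, 7 and 6 of them at 0, among these Adgre1, C1qa, C1qb and C1qc in all 3 groups. These genes, like the next 3, were named after their values were seen. Other markers of that list were present, with Csf1r at means of 13.9, 13.6 and 15.8 CPM, Cd14 at 14.9, 16.5 and 18.3 CPM and Mrc1 at 4.77, 10.1 and 7.57 CPM. Of its 5 tested markers, 1 was called higher with SCM, which is 20% beside 4.96% of all genes. The 9 enterocyte markers summed to 3916 to 5745, 4330 to 6260 and 2727 to 5569 CPM, and the 6 stem cell markers to 2923 to 4014, 2223 to 3736 and 2139 to 3651 CPM. The sums overlapped, yet single markers were called. Of the enterocyte markers 4 were higher with SCM (44.4%) and 3 with Wnt5a (33.3%), and of the 6 Paneth cell markers 2 were higher with each (33.3%). Of the stem cell markers 1 of 6 was lower with each (16.7%), and of the enteroendocrine markers 1 of 7 was lower with each (14.3%), beside 1.12% and 1.88% of all genes called lower. Of the 7 goblet cell markers 0 were called by edgeR, with or without the fold change cutoff. The goblet cell markers had medians of 2426, 2442 and 2286 CPM, the Paneth cell markers of 1683, 2031 and 1610 CPM, and the enteroendocrine markers of 464.9, 525.6 and 519.4 CPM. With QCM, 3 of the 9 enterocyte markers (33.3%), 1 of the 6 Paneth cell markers (16.7%) and 1 of the 7 enteroendocrine markers (14.3%) were called higher. Of all genes tested, 0.355% were called higher with QCM, and no marker of the other lists was called. The part of these cell types in the changes of the lysosomal genes was not tested.

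SCM was compared with QCM because both are media conditioned by fibroblasts and differ in whether the fibroblasts were senescent. Per the study's methods, the fibroblasts also differed in serum level, in length of culture before collection and in irradiation or doxorubicin. The comparison therefore does not isolate senescence. Of the 38 genes, 1 was called, Ctsh, which was higher in SCM, beside 0.761% of all genes called higher. Ctsh differed by a log2 fold change of 0.67 ± 0.141, adjusted p = 0.0131 by edgeR. The QCM libraries, 127 to 182 CPM, overlapped the SCM libraries, 161 to 296 CPM, and without the QCM + IgG library numbered 3 the adjusted p was 0.053. Without the fold change cutoff 2 genes passed, Ctsh and Asah1, beside 1.01% of all genes. Ctsl had a log2 fold change of 0.57 ± 0.183, adjusted p = 0.092, and Manba of 0.45 ± 0.171, adjusted p = 0.165. The median over the 38 genes was -0.01, beside -0.01 over all genes tested, and the interval lay inside 1.5-fold for 28 of the 38, beside 54.8% of all genes. Of the 6 Paneth cell markers 1 was called higher in SCM (16.7%), and no marker of the other cell type lists was called. Of the 8 epithelial markers 1 was lower without the fold change cutoff. The part of these cell types in the values of Ctsh and Asah1 was not tested.

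The antibody was tested to ask which changes depended on Ptk7. None of the 38 genes was called by edgeR for anti-Ptk7 against IgG in SCM, beside 1.23% of all genes, or in Wnt5a, beside 0.884%. At an unadjusted p under 0.05 there were 8 of 38 in SCM and 7 in Wnt5a, against 17.1% and 15% of all genes. Voom with limma called none in either, and DESeq2 called none in SCM and 1 in Wnt5a, Ctss. The interval lay inside 1.5-fold for 30 genes in SCM and 33 in Wnt5a, beside 54.7% and 56% of all genes. The SCM + IgG and Wnt5a + IgG libraries also enter the comparisons with complete media, so a value here and there is not independent.

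The 7 genes that rose with Wnt5a were called for the antibody in neither medium. Ctsh had a median of 265 CPM in Wnt5a + anti-Ptk7 and 214 in Wnt5a + IgG, with a 95% interval of the log2 fold change from -0.11 to 0.46. Ctsl had medians of 112 and 138 CPM, with an interval from -0.59 to 0.14, and in SCM medians of 86.0 with the antibody and 105.5 without, with an interval from -0.79 to -0.05 and an adjusted p of 0.228. Both intervals for Ctsl reach past a 1.5-fold decrease, so a decrease of that size was not resolved. Lipa missed the threshold in both media, with medians with and without the antibody of 57.1 against 42.9 CPM in Wnt5a and 37.4 against 31.4 CPM in SCM, and adjusted p values of 0.313 and 0.21 by edgeR. For Manba, Asah1, Npc1 and Scarb2 the adjusted p ranged from 0.679 to 0.998 over the 2 media.

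The hydrolases Gaa and Glb1, named after their values were seen, passed the test below the fold change cutoff, 2 of 38 genes in SCM and 1 in Wnt5a, beside 1.28% and 1.05% of all genes higher without the cutoff. Gaa ran from 93.7 to 125 CPM in Wnt5a + IgG and from 141 to 165 in Wnt5a + anti-Ptk7 (median 148), without overlap, and from 71.4 to 127 in SCM + IgG and 110.3 to 147 in SCM + anti-Ptk7 (median 142), with overlap. Its log2 fold change was 0.44 ± 0.0996 in Wnt5a, adjusted p = 0.0104 by edgeR, and 0.45 ± 0.0998 in SCM, adjusted p = 0.00909. Glb1, the β-galactosidase whose activity is stained as a sign of senescence, ran from 82.6 to 150.5 CPM in SCM + IgG (median 126) and from 145 to 185 in SCM + anti-Ptk7 (median 163.5), with overlap, and its log2 fold change was 0.42 ± 0.111, adjusted p = 0.0316. In Wnt5a it was 0.30 ± 0.111, adjusted p = 0.149. Ctss, a cysteine protease of antigen-presenting cells, was lower in level than the others, with medians of 12.9 CPM in Wnt5a + IgG and 21.1 in Wnt5a + anti-Ptk7 and overlapping groups, and had a log2 fold change of 0.65 ± 0.204, adjusted p = 0.0779 by edgeR. With the libraries numbered 1 left out, its log2 fold change was 0.57 in SCM, adjusted p = 0.123 by edgeR, and 0.67 in Wnt5a, adjusted p = 0.0702.

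Markers also moved with the antibody. The 6 Paneth cell markers summed to 884 to 1802 CPM in Wnt5a + IgG and 650.3 to 1424 in Wnt5a + anti-Ptk7, with overlap. In SCM they summed to 1600 to 2234 CPM with IgG and 1114 to 1823 with the antibody, also with overlap. Their median log2 fold change was -0.58 in Wnt5a, with 1 of 6 called lower (16.7%), and -0.37 in SCM, with 0 called by edgeR at the cutoff and 1 lower without it. Of the 7 enteroendocrine markers 2 were called lower in SCM (28.6%) and 1 in Wnt5a (14.3%). Of the 9 enterocyte markers 1 was called lower in each medium (11.1%). Of all genes tested, 0.645% were called lower in SCM and 0.432% in Wnt5a. The part of these cell types in the values of Gaa, Glb1 and the other genes was not tested.

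The antibody effect in Wnt5a was also set against that in SCM. None of the 38 genes was called by edgeR, DESeq2 or voom with limma, beside 0% of all genes by edgeR. The interval lay inside 1.5-fold for 29 of the 38, beside 43.6% of all genes. At the gene level 1 had an unadjusted p under 0.05, Ctsb, with an adjusted p of 0.999, beside 3.88% of all genes. For Gaa the difference between the 2 effects was -0.01, with an interval from -0.295 to 0.28.

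**Figure D4:**
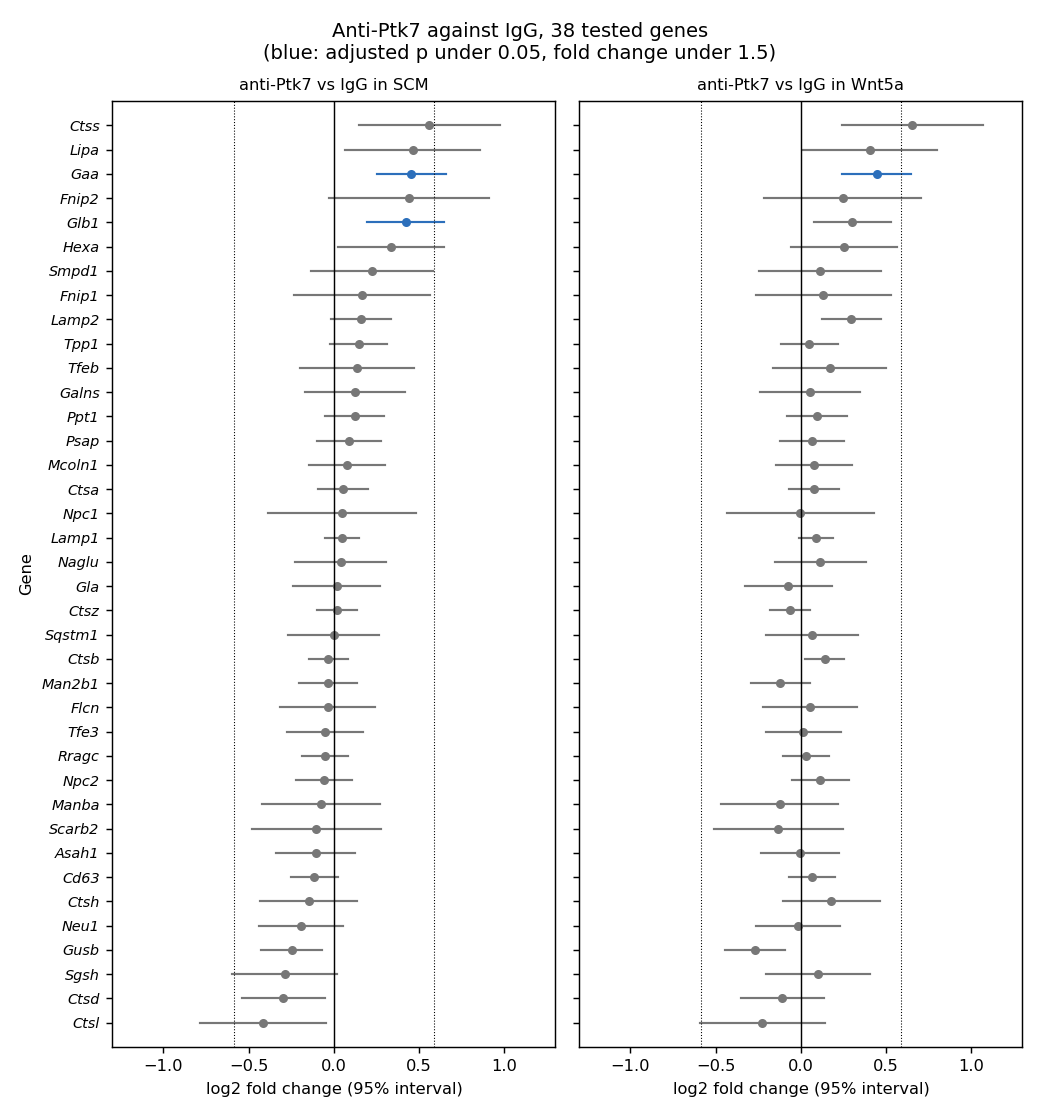
Each row is one of the 38 tested genes, ordered by the SCM panel, and the panels give the log2 fold change of anti-Ptk7 against IgG (points) with 95% intervals (lines) in SCM and in Wnt5a, with dotted lines at a fold change of 1.5. Gaa in both panels and Glb1 in SCM, in blue, have an adjusted p under 0.05 by edgeR, which called no gene.

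Rragd and Mcoln3 are the 2 genes picked for their pattern, and their values are a description. Rragd, the RagD GTPase that regulates the TFE factors at the lysosome, ran from 63.65 to 89.9 CPM in complete media + IgG (median 77.5), from 43.5 to 85.5 in QCM + IgG (median 66.8), from 33.7 to 80.2 in SCM + IgG (median 49.8), from 41.0 to 79.6 in SCM + anti-Ptk7 (median 71.2), from 34.1 to 60.2 in Wnt5a + IgG (median 53.9) and from 37.6 to 80.8 in Wnt5a + anti-Ptk7 (median 64.1). The Wnt5a + IgG libraries lay below every complete media library, and all other neighbouring groups overlapped. Its lowest value in every group was in the library numbered 1. Mcoln3, the endolysosomal calcium channel TRPML3, ran from 0 to 0.887 CPM in complete media + IgG (0 to 12 counts, median 0.24 CPM), from 0.38 to 2.28 in QCM + IgG (median 1.605), from 1.96 to 5.83 in SCM + IgG (median 4.25), from 4.86 to 14.9 in SCM + anti-Ptk7 (median 9.89), from 1.18 to 6.315 in Wnt5a + IgG (median 3.73) and from 10.3 to 20.85 in Wnt5a + anti-Ptk7 (median 11.5). The Wnt5a + anti-Ptk7 libraries lay above every Wnt5a + IgG library, and the SCM and SCM + anti-Ptk7 libraries overlapped. Even at its highest, Mcoln3 remained a gene of low abundance, with 295 counts in its highest library.

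**Figure D5:**
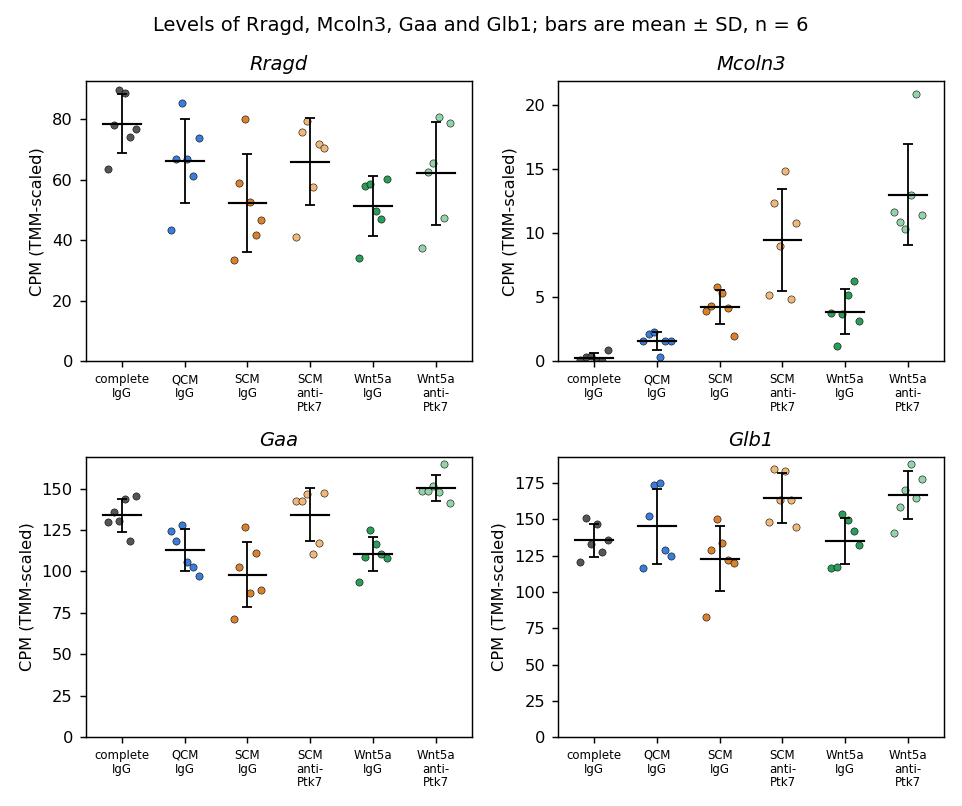
CPM of Rragd, Mcoln3, Gaa and Glb1 in each library, with one point per library and the mean ± SD of each group of 6 in black, on linear axes that start at 0. Rragd is lowest in SCM + IgG and Wnt5a + IgG, Mcoln3 goes from near 0 in complete media + IgG to a mean of 13.01 CPM in Wnt5a + anti-Ptk7, and the means of Gaa and Glb1 are higher with anti-Ptk7 than with IgG in both media.

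The wider lysosomal system was followed through 6 lists of other genes, 165 in all, of which 155 were tested. With SCM 4 of the 155 rose and none fell, and with Wnt5a 6 rose and 1 fell. The shares that rose were 2.58% with SCM, beside 4.96% of all genes, and 3.87% with Wnt5a, beside 8.29%. The share that fell with Wnt5a was 0.645%, beside 1.88%. By list, with Wnt5a 3 of 39 autophagy genes, 1 of 17 V-ATPase subunits, 1 of 28 other hydrolases and 1 of 26 other membrane and transport proteins rose, 1 of 27 genes of nutrient sensing by mTORC1 fell, and 0 of 18 tested genes were called on a list of hydrolase sorting genes. That list also holds Grn, Tfec, Ppp3cb, Ywhah and Ppargc1a, which are not sorting genes, and the list of membrane and transport proteins holds Gm2a, a soluble protein. With QCM and for SCM against QCM 0 of the 155 were called, for anti-Ptk7 in SCM 1 was higher, beside 0.581% of all genes, and for anti-Ptk7 in Wnt5a 1 was lower, beside 0.432%. Without the fold change cutoff, edgeR gave 13 of 155 higher and 6 lower with SCM, beside 7.43% and 4.45% of all genes. It gave 17 higher and 11 lower with Wnt5a, beside 12.5% and 9.4%, and 0 with QCM. The median log2 fold change of the 155 was -0.003 with SCM and 0.06 with Wnt5a, beside 0.01 and 0.01 over all genes.

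Map1lc3a, an LC3 protein that coats autophagosomes, ran from 6.075 to 11.6 CPM in complete media + IgG (median 7.75), from 17.25 to 34.25 in SCM + IgG (median 23.3) and from 19.9 to 51.5 in Wnt5a + IgG (median 26.8). The SCM and Wnt5a libraries lay above every complete media library, with log2 fold changes of 1.54 ± 0.247, adjusted p = 5.37e-05 by edgeR, and 1.885 ± 0.248, adjusted p = 1.14e-06. The QCM libraries, 12.25 to 16.5 CPM (median 15.5), also lay above every complete media library, with a log2 fold change of 0.87 ± 0.247 that missed the threshold, adjusted p = 0.105 by edgeR. Hyal1, a lysosomal hyaluronidase, had medians of 3.01, 8.39 and 9.16 CPM in complete media + IgG, SCM + IgG and Wnt5a + IgG, with log2 fold changes of 1.535 with SCM, adjusted p = 0.00983, and 1.80 with Wnt5a, adjusted p = 0.00127. Gm2a, the activator protein for ganglioside breakdown, had medians of 25.3, 45.5 and 48.9 CPM, with log2 fold changes of 0.80 and 1.18. It fell with the antibody in Wnt5a, to a median of 34.7 CPM, a log2 fold change of -0.69 ± 0.191, adjusted p = 0.0408 by edgeR. That call was kept in 4 of 12 fits that each left out 1 library. It was lost without Wnt5a + IgG replicate 1, 5 or 6 or any of Wnt5a + anti-Ptk7 replicates 2 to 6, with a log2 fold change of -0.43, adjusted p = 0.178, without Wnt5a + IgG replicate 1. In SCM its median was 45.5 CPM with IgG and 28.4 with the antibody, a log2 fold change of -0.57 ± 0.192 that missed the threshold, adjusted p = 0.103 by edgeR. Gabarapl2, an LC3 relative, rose with SCM with a log2 fold change of 0.94. Atp6v0a1, a membrane subunit of the proton pump, rose with Wnt5a from a median of 66.55 to 107 CPM, a log2 fold change of 0.95 ± 0.195, and the autophagy genes Ulk2 and Atg2a rose by 0.67 and 0.70. The adjusted p of Atg2a became 0.0503 without Wnt5a + IgG replicate 1 and 0.0574 without replicate 5 of that group. Sesn2, a leucine sensor that restrains mTORC1, fell with Wnt5a from a median of 79.65 to 52.8 CPM, without overlap, a log2 fold change of -0.59 ± 0.105, adjusted p = 0.000103 by edgeR. Its size lay close to the cutoff of 1.5-fold and ran from -0.635 to -0.55 with single libraries left out, past the cutoff in 6 of 12 fits. It fell short without complete media + IgG replicate 1, 5 or 6 or Wnt5a + IgG replicate 1, 3 or 4, with adjusted p of at most 0.000555. Idua, the iduronidase of glycosaminoglycan breakdown, rose with anti-Ptk7 in SCM from a median of 9.59 to 15.2 CPM, a log2 fold change of 0.84 ± 0.232, adjusted p = 0.0421 by edgeR. That call was kept in 4 of 12 fits that each left out 1 library. It was lost without SCM + IgG replicate 1, 2 or 6 or any of SCM + anti-Ptk7 replicates 2 to 6, with adjusted p up to 0.0968 and a log2 fold change of 0.646 without SCM + IgG replicate 1. In Wnt5a the log2 fold change of Idua with the antibody was 0.335, adjusted p = 0.543 by edgeR.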

How the data were processed

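RNA was sequenced from 36 libraries of mouse intestinal organoids, 6 in each of 6 groups taken from the sample labels. Per the labels and the study's methods, the authors aligned single-end reads to mm10 with GSNAP, counted reads within coding sequences with HTSeqGenie and deposited raw counts per gene; the annotation and the strand setting of the counting are not given in the sources used here. Counts shared by overlapping genes can therefore not be told apart. From the deposited counts, filterByExpr kept 15497 genes, which were scaled by TMM and fitted with edgeR's quasi-likelihood test (edgeR 4.0.16, R 4.3.3) over all 36 libraries with 6 group means and no covariate. P-values were adjusted by Benjamini-Hochberg over all genes tested, the standard error is the log2 fold change over the root of its F statistic, and levels are CPM. Calls needed both a fold change over 1.5 and an adjusted p below 0.05. Alternatives used DESeq2 1.42.0, voom with limma 3.58.1, other scalings and filters, and left out libraries. The fits were tested on simulated counts, drawn without an effect shared by libraries of the same number, so pairing was not examined. The first criterion, over genes of all levels, was narrowly missed through genes with few counts. Recovery was then judged on genes with more counts. The members and lists were chosen with earlier results of these data known. The text names each member called in any of the comparisons, Tfeb, Tfe3, Mitf, Lamp1, Lamp2, Mcoln1, Flcn and Rragc whatever their values, Rragd and Mcoln3 with no test, and at most 4 called genes of each other list. Any other gene named with a value was chosen after its values were seen. This is said at most of them, but not at the highest genes in complete media + IgG or at Ctsb in the comparison of the antibody effects. Totals of 9581589 to 21029769 counts per library set the precision, and genes near 0 were measured with few counts.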

Additional observations from a re-analysis of the deposited data

Results flagged for a closer look

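The highest or lowest library was set against the other 5 of its group for 16 genes in 6 groups, 96 groups in all, and 5 stood apart by Dixon's test. Chance alone marks about 1 group in 20. In QCM + IgG, the library numbered 1 held Lipa at 41.2 CPM, and the other 5 lay between 21 and 25.8 CPM. In Wnt5a + IgG, the library numbered 1 held Npc1 at 39.2 CPM, and the other 5 lay between 22 and 26.5 CPM; the call for Npc1 with Wnt5a was kept without it. Mcoln3 stood apart in 3 groups, at 0.38 CPM in QCM + IgG replicate 4 against 1.57 to 2.28 CPM, at 1.96 CPM in SCM + IgG replicate 6 against 3.97 to 5.83 CPM, and at 20.8 CPM in Wnt5a + anti-Ptk7 replicate 5 against 10.3 to 13 CPM.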

How the results depend on the processing

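Neither a called member nor a called gene of the other lists changed direction under an alternative or with a library left out, and the sums and counts of the markers were not run under the alternatives. The fold change cutoff mattered most. Without it, the number of the 38 genes called was 1 with QCM, 5 with SCM, 14 with Wnt5a, 2 for SCM against QCM, 2 for anti-Ptk7 in SCM and 1 for anti-Ptk7 in Wnt5a. Testing against a fold change of 1.5 (glmTreat) called 1 with SCM, 2 with Wnt5a and 0 for SCM against QCM: Ctsh was kept with SCM, and Ctsh and Ctsl with Wnt5a, while the adjusted p by edgeR rose to 0.109 for Ctsl with SCM and to 0.112, 0.845, 0.264, 0.72 and 0.374 for Manba, Asah1, Lipa, Npc1 and Scarb2 with Wnt5a. That test asks for a change beyond 1.5-fold, a stricter question. For anti-Ptk7 in Wnt5a, DESeq2 and the fit with a replicate block each called 1 gene, Ctss, against 0. Leaving out each library in turn gave 0 to 1 called with QCM, where 1 was called without complete media + IgG replicate 1, 2 to 3 with SCM, 7 to 7 with Wnt5a, 0 to 1 for SCM against QCM, where 0 was called without QCM + IgG replicate 3, 0 to 0 for anti-Ptk7 in SCM, and 0 to 1 for anti-Ptk7 in Wnt5a, where 1 was called without Wnt5a + IgG replicate 2 or Wnt5a + anti-Ptk7 replicate 1. The cause of these changes was not tested. With the library numbered 1 left out of every group, an alternative chosen after the data were seen, the counts were 0, 2, 7, 1, 0, 0 and 0 in the 7 comparisons, with the same genes. Below the fold change cutoff, the adjusted p by edgeR then passed 0.05 for Ctsh (0.0169) and Ctsl (0.0383) with QCM, Ctsd (0.0306), Lipa (0.0322) and Scarb2 (0.00979) with SCM, Mcoln1 (0.037) with Wnt5a, Ctsl (0.0204) for SCM against QCM and Ctsd (0.0414) for anti-Ptk7 in SCM, and no longer passed for Gaa (0.0774) and Lamp2 (0.125) with Wnt5a.

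No label states that the libraries with the same number are paired, and their deviations were alike in part. Of 90 pairs with the same number in different groups, 34 had a correlation of their deviations from the group means over 0.1, from -0.0442 to 0.45, with a mean of 0.092 against -0.018 for different numbers, and 16 of 36 libraries correlated best with one of their own number. The replicate block, DESeq2 and the filter of at least 10 counts in every library each moved the count with SCM from 2 to 3, adding Npc1. Over all genes tested, the replicate block raised the number called higher from 55 to 166 with QCM and from 118 to 425 for SCM against QCM. For anti-Ptk7 that number went from 90 to 163 in SCM and from 70 to 131 in Wnt5a. Of the 38 genes, the block called 0 with QCM and 1 for SCM against QCM, as the main fit did. Genes with few counts, such as Mcoln3 with 0 to 12 counts in complete media + IgG, are limited by depth. The alternatives for the called genes of the other lists were chosen after the data were seen. Beside glmTreat, which kept Map1lc3a with SCM and Map1lc3a, Hyal1 and Gm2a with Wnt5a, the call of Sesn2 with Wnt5a was lost with at least 10 counts in every library and without the libraries numbered 1, that of Idua with anti-Ptk7 in SCM with no filter, with the compared groups alone and without the libraries numbered 1, and that of Gm2a with anti-Ptk7 in Wnt5a in those 3 settings and with voom. Hyal1 had no value with at least 10 counts in every library.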
